A study of Mus musculus with 16 samples.

Results

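Fibroblast growth factors (FGFs) and their receptors were described in the mouse uterus after estrogen. The 10 genes, of 25859 genes tested, are 6 ligands that act between neighbouring cells (Fgf1, Fgf2, Fgf7, Fgf9, Fgf10 and Fgf18) and 4 receptors (Fgfr1, Fgfr2, Fgfr3 and Fgfr4). They were chosen by name as a set of paracrine FGFs and the FGF receptors, with earlier results of these data known. The set does not hold every paracrine FGF, and other FGF ligands are described further below. The endocrine ligand Fgf21 was not included. All 10 were found on the array, with 19 probes of 60 bases. Of these probes, 17 passed the filter on dim probes, so that every gene was tested. RNA from whole uteri was hybridised to 16 one-colour Agilent arrays, 1 array per sample and 4 arrays in each of 4 groups. The groups were wild-type (WT) mice given castor oil alone (0 µg/kg, called PLB in the labels), WT mice given 8 µg/kg of 17β-estradiol (E2) under the skin in castor oil, and mice of the genotype Arg260 given the same treatments. Arg260 mice carry an altered estrogen receptor alpha (Arg260-ERα); the labels do not state what the change in the receptor is. All mice had their ovaries removed at 4 weeks of age, were kept for 2 to 3 weeks, and were sampled 6 h after injection. The labels do not say whether the samples of a group are separate animals, so p-values measure the spread between these samples.

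FGFs are secreted proteins that bind receptor tyrosine kinases together with heparan sulfate chains on the cell surface. Activated receptors recruit the adaptor Frs2 and start the Ras and MAP kinase cascade, and Sprouty proteins and the phosphatase Dusp6 feed back on it. In the uterus and other organs with an epithelium, Fgf7 and Fgf10 are made by stromal cells and act on the epithelial splice form of Fgfr2, and E2 acts on both layers through estrogen receptor alpha.

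Levels are given as the log2 of the spot signal minus the log2 of the 75th percentile of the array, so that 0 is a signal at that percentile. Levels of different genes come from different probes and were not set against each other. Between 61.6% and 70.6% of the spots of an array were well above background. The arrays lay on 2 slides of 8, each with 2 arrays of every group. Defining markers of epithelium (12 of 12), stroma (12 of 12) and smooth muscle (9 of 9) were well above background on every array. Adipocyte markers were also well above background (11 of 12 in each group).

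The promoters of 4 members whose RNA changed after E2 are shown as examples (Fgf7, Fgf10 and Fgfr2, which fell, and Fgfr3, which rose). Fgf18 also fell and Fgf1 and Fgf9 also rose, and their promoters are not shown. All 3 windows of members that held the motif marked below are among the 4 shown. The share among these 4 is therefore no measure of the members. Each line holds the 250 bases before the RefSeq start of the gene (build GRCm38.p6), read 5′ to 3′ along the gene. Capitals mark GGTCA or its complement TGACC, the short motif that makes up each arm of an estrogen response element.
Fgf7 (chr2:126034408-126034657, plus strand): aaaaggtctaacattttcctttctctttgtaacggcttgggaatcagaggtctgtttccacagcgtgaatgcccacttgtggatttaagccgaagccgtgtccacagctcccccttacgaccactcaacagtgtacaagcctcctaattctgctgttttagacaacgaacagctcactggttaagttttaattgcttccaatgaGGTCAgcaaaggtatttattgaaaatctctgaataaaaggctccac
Fgf10 (chr13:118714449-118714698, plus strand): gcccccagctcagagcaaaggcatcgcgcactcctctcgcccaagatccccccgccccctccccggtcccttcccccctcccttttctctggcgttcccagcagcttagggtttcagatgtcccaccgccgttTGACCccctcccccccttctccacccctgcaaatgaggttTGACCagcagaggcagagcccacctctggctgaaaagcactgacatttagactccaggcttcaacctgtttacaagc
Fgfr2 (chr7:130266809-130267058, minus strand): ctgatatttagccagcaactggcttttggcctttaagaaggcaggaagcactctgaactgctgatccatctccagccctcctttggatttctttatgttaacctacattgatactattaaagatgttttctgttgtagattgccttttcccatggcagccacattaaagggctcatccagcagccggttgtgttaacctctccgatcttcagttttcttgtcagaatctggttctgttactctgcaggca
Fgfr3 (chr5:33721474-33721723, plus strand): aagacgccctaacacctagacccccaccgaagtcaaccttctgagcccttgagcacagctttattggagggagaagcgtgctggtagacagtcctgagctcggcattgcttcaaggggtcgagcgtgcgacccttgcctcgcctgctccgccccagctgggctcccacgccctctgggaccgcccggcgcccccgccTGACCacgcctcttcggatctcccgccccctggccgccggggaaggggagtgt
The Fgf7 promoter held 1 match, 46 bases before the start. The Fgf10 promoter held 2 matches on the opposite strand, 117 and 77 bases before the start, and Fgfr3 held 1 on the opposite strand, 53 bases before the start. The Fgfr2 window held none. GGTCA was searched on both strands in windows of the same length, and 35.2% of 32851 RefSeq promoters held it, against 3 of the 9 windows of the 8 members that the promoter table lists. The full element, GGTCANNNTGACC, contains the short motif; it was in 0.0639% of all promoters and in 0 of the members' windows. The base composition also differed, with 43.6% G and C for Fgf7, 44.0% for Fgfr2, 61.2% for Fgf10 and 66.8% for Fgfr3 (median of all promoters 52.4%). A match is a description of the sequence and not a site of binding.

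What E2 changed was asked first in WT mice and then in Arg260 mice. The ligands Fgf10, Fgf7 and Fgf18 and the receptor Fgfr2 fell in both genotypes, and the ligands Fgf1 and Fgf9 and the receptor Fgfr3 rose in both. Fgf2, Fgfr1 and Fgfr4 did not pass the test in either. In WT, 7 of the 10 members passed (limma, adjusted p under 0.05 over all genes), where 63.6% of all genes passed: 3 were higher (31.9% of all genes) and 4 lower (31.7%). In Arg260, 7 of 10 passed, against 64.3% of all genes, again with 3 higher (33.6%) and 4 lower (30.7%). The share of members that passed was therefore close to that of all genes. Changes of 2-fold or more were seen for 6 members in WT and 4 in Arg260, where 29.6% and 29.8% of all genes changed as much. The median size of the log2 change over the members, either direction, was 1.16 in WT and 0.93 in Arg260, beside 0.58 and 0.60 over all genes. The members were chosen with earlier results of these data known, so that these counts and sizes are no test. Levels of E2 and PLB arrays did not overlap for 8 members in WT (59.1% of all genes) and for 6 in Arg260 (58.7%). In whole-tissue RNA, fewer cells of a type and less RNA per cell cannot be told apart. The 2 responses use separate PLB arrays but the same estimate of spread.

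**Figure D1:**
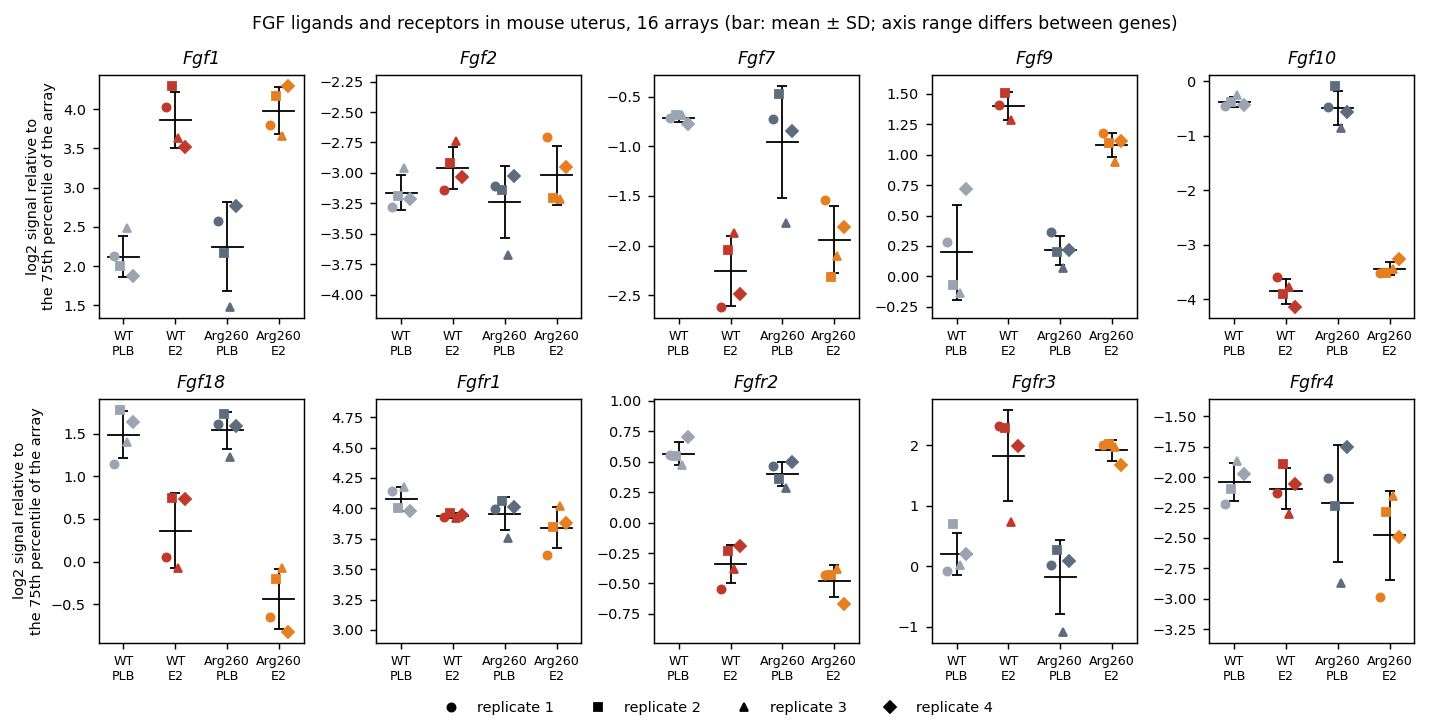
Log2 levels of the 10 members on each of the 16 arrays, 1 panel per gene with its own axis range; marker shapes give the replicate, and black bars the mean ± SD of a group (4 arrays, 3 for Fgf9 in WT E2). Fgf10 lay between -4.14 and -3.26 on all E2 arrays and between -0.85 and -0.08 on all PLB arrays.

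**Figure D2:**
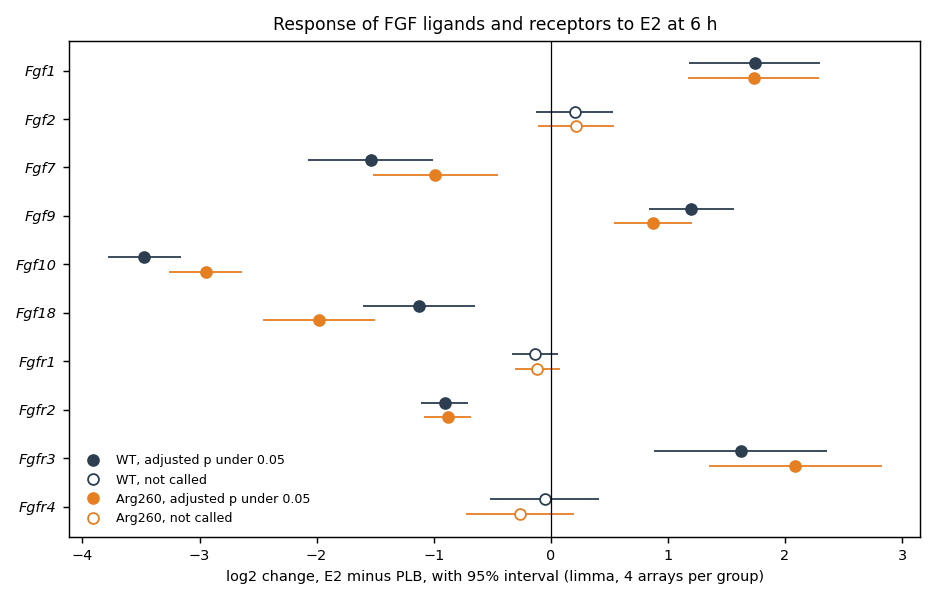
Log2 change of each member after E2 with its 95% interval, WT dark and Arg260 orange; filled points passed the test at an adjusted p under 0.05. The 3 members with open points (Fgf2, Fgfr1 and Fgfr4) have intervals that include 0 in both genotypes.

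Among the ligands, Fgf10, which drives budding and growth of epithelia, fell most. Its levels were -0.44, -0.38, -0.24 and -0.44 on the 4 WT PLB arrays and -3.59, -3.89, -3.77 and -4.14 on the 4 WT E2 arrays. In Arg260 they were -0.47, -0.08, -0.85 and -0.57 with PLB and -3.52, -3.51, -3.45 and -3.26 with E2. The groups did not overlap in either genotype, and the signal stayed well above background on all 16 arrays. Fgf10 was 11.1-fold lower in WT (log2 change -3.47, SE 0.14, adjusted p = 1.30e-10, limma) and 7.72-fold lower in Arg260 (-2.95, SE 0.14, adjusted p = 4.48e-10). Only 0.603% of all genes fell further in WT and 1.03% in Arg260. On slide 1 and slide 2 alone, the WT change was -3.33 and -3.61, and the Arg260 change -3.24 and -2.65. The probe has 10 spots per array, and the SD between its spots on an array had a median of 0.11, small beside the change.

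Fgf7, or keratinocyte growth factor, the other stromal ligand of the epithelial form of Fgfr2, also fell. Its WT PLB levels were -0.72, -0.68, -0.68 and -0.77, and its WT E2 levels were -2.62, -2.04, -1.87 and -2.49. The Arg260 PLB levels were -0.72, -0.48, -1.78 and -0.85, and the Arg260 E2 levels were -1.54, -2.32, -2.10 and -1.81. The WT groups were apart, whereas replicate 3 of Arg260 PLB, at -1.78, lay among the E2 arrays of its genotype. Fgf7 was 2.91-fold lower in WT (-1.54, SE 0.25, adjusted p = 7.58e-05, limma) and 1.98-fold lower in Arg260 (-0.99, SE 0.25, adjusted p = 0.00302). Without that array the Arg260 change was -1.26. On slide 2 alone, which holds it, the Arg260 change was -0.64 and did not pass (adjusted p = 0.189).

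Fgf18, a ligand known for its part in cartilage and bone growth, fell in both genotypes. The difference between its responses was the largest among the members, though it did not pass the test. The WT levels were 1.14, 1.77, 1.40 and 1.64 with PLB and 0.05, 0.75, -0.08 and 0.73 with E2. The Arg260 levels were 1.62, 1.73, 1.23 and 1.59 with PLB and -0.65, -0.20, -0.08 and -0.82 with E2. E2 and PLB arrays did not overlap in either genotype. Fgf18 was 2.18-fold lower in WT (-1.12, SE 0.22, adjusted p = 4.47e-04, limma) and 3.95-fold lower in Arg260 (-1.98, SE 0.22, adjusted p = 1.90e-06). A second probe, which shares 26 bases with the first and so is no independent measure, gave -1.19 and -2.20.

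The ligands that rose were Fgf1 and Fgf9. Fgf1 lacks a signal peptide for secretion and can bind all 4 receptors. Its levels were 2.13, 2.01, 2.48 and 1.87 in WT PLB and 4.02, 4.29, 3.63 and 3.51 in WT E2. In Arg260 they were 2.57, 2.16, 1.48 and 2.77 with PLB and 3.80, 4.16, 3.66 and 4.30 with E2. No PLB array reached the E2 arrays of its genotype. The rise was 3.34-fold in WT (log2 change 1.74, SE 0.26, adjusted p = 3.37e-05, limma) and 3.32-fold in Arg260 (1.73, SE 0.26, adjusted p = 3.47e-05). With quantile normalisation the changes were 1.43 and 1.35. Probes within 0.5 of the level of this Fgf1 probe had a median change of 0.31 and 0.33 with the 75th percentile. A second, dimmer Fgf1 probe, 19937 bases away on the genome, rose by 1.23 in WT and 1.20 in Arg260. On slide 2 alone the WT change of the first probe was 1.39 (adjusted p = 0.0526).

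Fgf9, a growth factor of mesenchyme and of the developing gonad and lung, was measured by 1 probe with 1 spot. The scanner software marked that spot as an outlier on replicate 4 of WT E2, so that this group has 3 values for Fgf9 (1.41, 1.51 and 1.28). The WT PLB levels ranged from -0.14 to 0.72. The Arg260 levels ran from 0.07 to 0.36 with PLB and from 0.94 to 1.17 with E2, so that neither genotype's groups overlapped. Fgf9 rose 2.30-fold in WT (1.20, SE 0.17, adjusted p = 2.37e-05, limma) and 1.83-fold in Arg260 (0.87, SE 0.15, adjusted p = 2.15e-04). With the marked spot kept, at 1.05, the WT change was 1.11. On slide 2 alone, which holds the marked spot, the WT change was 0.995 and rests on 1 E2 array. The Arg260 change there was 0.88 and did not pass (adjusted p = 0.0698).

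Fgf2, like Fgf1 a ligand without a signal peptide, is shown by its probe because the 60 bases lie on separate exons, spanning 47220 bases of the genome in the files' build (mm9).
Fgf2 probe (chr3:37247934-37295153): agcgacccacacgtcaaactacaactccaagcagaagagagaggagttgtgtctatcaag
Its levels ranged from -3.28 to -2.96 in WT PLB and from -3.14 to -2.74 in WT E2. They ranged from -3.67 to -3.03 in Arg260 PLB and from -3.22 to -2.71 in Arg260 E2, and the groups overlapped in both genotypes. The changes were 0.20 in WT (95% interval -0.12 to 0.53, adjusted p = 0.260, limma) and 0.22 in Arg260 (-0.11 to 0.54, adjusted p = 0.229), which does not show that Fgf2 stayed the same. Without replicate 3 of Arg260 PLB the Arg260 change was 0.07, without replicate 1 of Arg260 E2 it was 0.11, and without replicate 3 of WT E2 the WT change was 0.13. In the deposited series table it passed narrowly (0.30 and 0.31, adjusted p = 0.0466 and 0.0401). Another Fgf2 probe was dim, well above background on 0 of 16 arrays.

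Among the receptors, Fgfr2, the receptor of Fgf7 and Fgf10 in epithelia, fell. Its levels were 0.55, 0.54, 0.47 and 0.70 on the WT PLB arrays and -0.55, -0.24, -0.38 and -0.20 on the WT E2 arrays. They were 0.46, 0.36, 0.28 and 0.50 on the Arg260 PLB arrays and -0.43, -0.43, -0.38 and -0.67 on the Arg260 E2 arrays. No E2 array overlapped with PLB, and the spread within groups was small (SD 0.10 to 0.16). Fgfr2 was 1.88-fold lower in WT (-0.91, SE 0.09, adjusted p = 7.25e-07, limma) and 1.84-fold lower in Arg260 (-0.88, SE 0.09, adjusted p = 9.61e-07). Its other probe, which shares 42 bases with it, fell by 1.34 and 1.39. The files do not say which splice form of Fgfr2 the probes detect.

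Fgfr3, a receptor known to restrain bone growth and also present in epithelia, rose. The WT PLB levels were -0.09, 0.69, 0.01 and 0.20, and the WT E2 levels 2.31, 2.28, 0.73 and 1.99. The Arg260 PLB levels were 0.02, 0.26, -1.08 and 0.09, and the Arg260 E2 levels 2.00, 2.02, 1.96 and 1.66. The groups did not overlap, but replicate 3 of WT E2 (0.73) lay just above replicate 2 of WT PLB (0.69). Fgfr3 rose 3.08-fold in WT (1.62, SE 0.34, adjusted p = 7.81e-04, limma) and 4.25-fold in Arg260 (2.09, SE 0.34, adjusted p = 8.43e-05). On slide 2 alone, which holds that WT E2 array, the WT change was 1.25 and did not pass (adjusted p = 0.0990). A second probe is printed because it shares no base with the first, lies 1793 bases away and joins separate exons (span 235 bases in mm9).
Fgfr3 probe (chr5:34077856-34078090): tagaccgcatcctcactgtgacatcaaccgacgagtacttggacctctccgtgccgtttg
With this probe Fgfr3 rose by 1.22 in WT and by 1.66 in Arg260. Its levels ran from -4.28 to -3.67 in WT PLB and from -3.07 to -2.61 in WT E2, with no overlap. They ran from -4.67 to -3.70 in Arg260 PLB and from -2.62 to -2.36 in Arg260 E2. The remaining Fgfr3 probe was dim, well above background on 0 of 16 arrays.

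**Figure D3:**
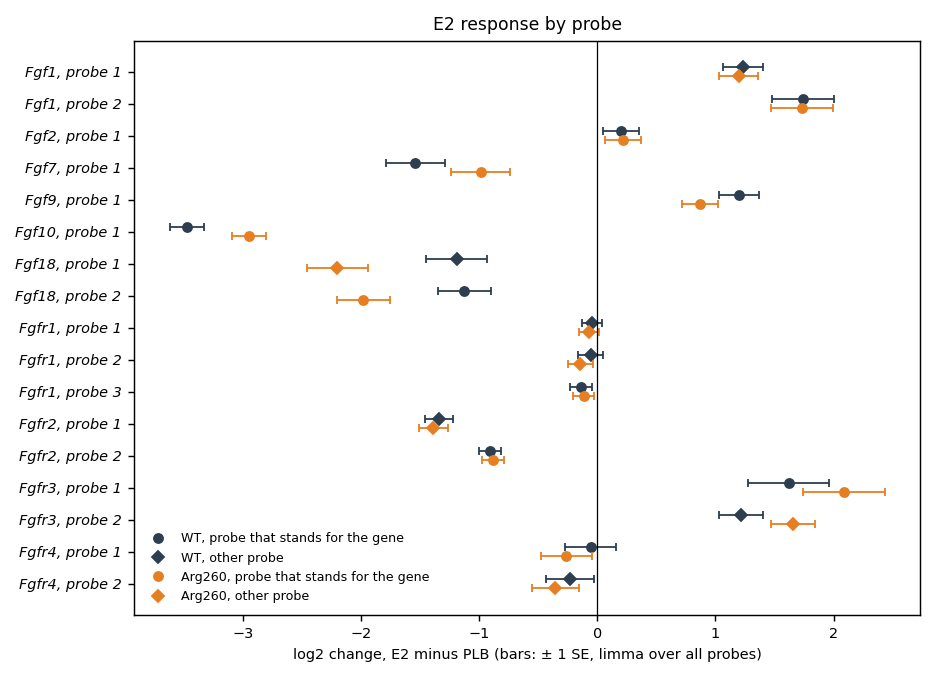
Log2 change after E2 for each of the 17 tested probes of the 10 members, with ± 1 SE; circles are the probe that stands for the gene and diamonds its other probes. The probes of Fgf1, Fgf18, Fgfr2 and Fgfr3 each go the same way as their partner, and the 3 Fgfr1 probes all lie between -0.14 and -0.04.

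Fgfr1, the broadly expressed receptor of connective tissue, did not pass the test with this scaling, and its call depended on it. Its levels were 4.14, 4.00, 4.18 and 3.98 in WT PLB and 3.93, 3.96, 3.92 and 3.95 in WT E2, which did not overlap. In Arg260 they ran from 3.76 to 4.06 with PLB and from 3.61 to 4.02 with E2. The changes were -0.13 in WT (95% interval -0.33 to 0.06, adjusted p = 0.208, limma) and -0.12 in Arg260 (-0.31 to 0.08, adjusted p = 0.278). With quantile normalisation they were -0.57 (adjusted p = 3.67e-05) and -0.59 (2.44e-05), and in the deposited series table -0.55 and -0.64. Probes within 0.5 of the level of this probe, which is among the brighter ones, had a median change of 0.44 in WT and 0.50 in Arg260 with the 75th percentile. With quantile normalisation their median was 0.02 and 0.03. Its other 2 probes, dimmer, changed by between -0.14 and -0.04 and did not pass under either scaling. In WT these were -0.04 and -0.06, beside -0.10 and -0.03 for probes of their own level with the 75th percentile.

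Fgfr4, the receptor that with β-Klotho controls bile acid synthesis in liver, gave no call. Its levels ran from -2.22 to -1.87 in WT PLB and from -2.30 to -1.89 in WT E2. They ran from -2.87 to -1.75 in Arg260 PLB and from -2.98 to -2.15 in Arg260 E2, so that groups overlapped in both genotypes. The WT change was -0.05 (95% interval -0.51 to 0.41, adjusted p = 0.846, limma), and its sign depended on the scaling (0.10 with quantile normalisation). The Arg260 change was -0.26 (-0.73 to 0.20, adjusted p = 0.301). Without replicate 3 of Arg260 PLB it was -0.48 and passed (adjusted p = 0.0321). The second Fgfr4 probe gave -0.23 and -0.35 and did not pass.

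**Figure D4:**
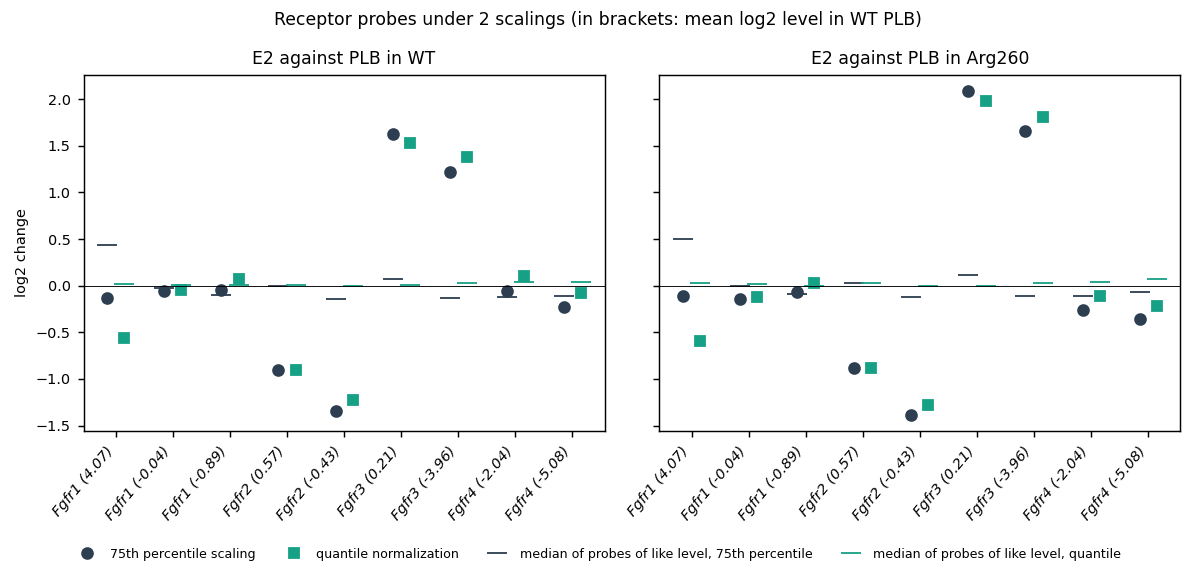
Log2 change after E2 of each tested receptor probe with the array's 75th percentile (dark circles) and with quantile normalisation (green squares); dashes are the median change of probes within 0.5 log2 of the same level under each scaling, and brackets give the WT PLB level. The brightest Fgfr1 probe moves from -0.13 to -0.57 in WT, while Fgfr2 and Fgfr3 keep their direction.

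Whether the genotypes differed was tested in 3 ways: Arg260 against WT in PLB, the same in E2, and the difference of the E2 responses. Fgf18 was lower and Fgf10 higher in Arg260 than in WT after E2, each without passing the test over all genes. None of the 10 members was called in any of these comparisons, in which 0% of all genes were called (limma, 0 of 25859). At an unadjusted p under 0.05 there were 638 genes in PLB (2.47%), 1899 in E2 (7.34%) and 961 for the difference of responses (3.72%). Among the members, 0 were at that level in PLB, 2 in E2 and 2 for the difference, Fgf10 and Fgf18 each time. The quantile-normalised values gave 1 gene called in E2 and the normexp-corrected values 3.

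The mean E2 level of Fgf18 was 0.36 ± 0.44 (SD, n = 4) in WT and -0.44 ± 0.35 (SD, n = 4) in Arg260. The Arg260 E2 arrays lay between -0.82 and -0.08 and the WT E2 arrays between -0.08 and 0.75, and they overlapped at the edge. The difference of levels was -0.80 (95% interval -1.28 to -0.32, unadjusted p = 0.00289, adjusted p = 0.451, limma), and 0.862% of all genes lay further below. The fall after E2 went further in Arg260, by -0.86 (SE 0.31, unadjusted p = 0.0166, adjusted p = 0.9998). The PLB levels of Fgf18 differed by 0.05. Over 30 alternatives the difference of responses stayed between -1.06 and -0.67 and its adjusted p did not go below 0.902.

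Fgf10 lay at -3.85 ± 0.23 (SD, n = 4) in WT E2 and at -3.44 ± 0.12 (SD, n = 4) in Arg260 E2. Each Arg260 E2 array was above each WT E2 array. The difference was 0.41 (95% interval 0.10 to 0.72, unadjusted p = 0.0134, adjusted p = 0.608, limma). The difference of the responses was 0.52 (SE 0.21, unadjusted p = 0.0229, adjusted p = 0.9998), and it was 0.09 on slide 1 alone against 0.96 on slide 2 alone. Fgf9 was the other of the 2 members whose E2 arrays did not overlap between genotypes, against 3.95% of all genes; its marked WT spot, at 1.05, lies within the Arg260 range. With PLB no member was without overlap (1.66% of all genes), and the differences ran from -0.38 to 0.12. Over the 10 members, the 95% interval of the difference of responses extended 0.57 either side at the median and 1.04 at most (log2).

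One Arg260 PLB array stood apart for these genes. Replicate 3 had the lowest level of its group for 10 of 10 members, where 39.5% of all genes were lowest on that array. The median deviation of the members there from the mean of the other 3 arrays of the group was -0.53, beside -0.07 over all genes. The mean level of 9 immune cell markers was 2.32 on this array and 0.63 to 0.98 on the other 3 of its group. Its part in the members' levels was not tested. Without it and without replicate 2 of WT PLB, for which the deposited series table has 228 empty values, 7 members were called in WT (62.2% of all genes) and 8 in Arg260 (62.9%), the added one being Fgfr4.

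**Figure D5:**
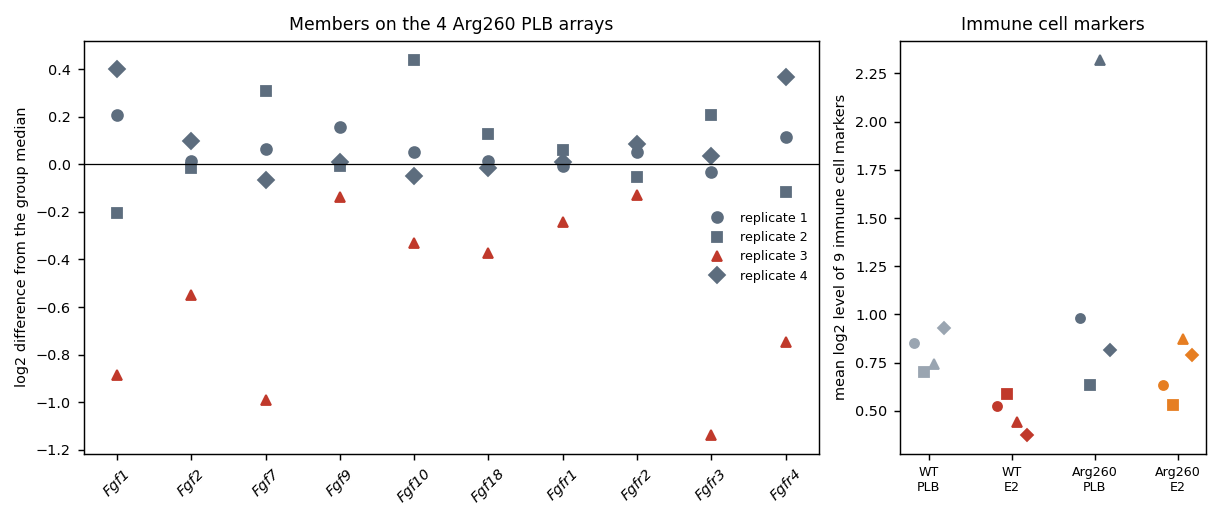
Left, the log2 difference of each member on the 4 Arg260 PLB arrays from its group median, replicate 3 in red; right, the mean log2 level of 9 immune cell markers on all 16 arrays. Replicate 3 is the lowest of its group for 10 of 10 members and the highest array for the immune markers, at 2.32.

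Markers of cell types moved with E2 as well. Of 12 stromal markers, 7 fell and 0 rose in each genotype (median -0.70 and -0.82), and their mean level ranged from 4.06 to 4.76 in WT PLB, 3.30 to 4.14 in WT E2, 4.20 to 4.85 in Arg260 PLB and 3.45 to 3.89 in Arg260 E2. Of 12 epithelial markers, the test found 4 higher and 2 lower in WT, 6 and 2 in Arg260, with a mean level of 1.78 to 2.22 in WT PLB, 2.36 to 2.57 in WT E2, 1.80 to 2.20 in Arg260 PLB and 2.30 to 2.70 in Arg260 E2. Adipocyte markers fell for 11 of 12 in WT (median -3.05) and 5 of 12 in Arg260 (median -1.62). Their mean level went from 0.73 to 2.32 on WT PLB arrays to between -2.92 and -0.11 on WT E2 arrays, and from 0.36 to 1.54 to between -1.55 and 0.72 in Arg260. Of 9 immune markers, WT had 1 higher and 3 lower, Arg260 1 and 2. Of 9 smooth muscle markers, WT had 4 higher and 1 lower, Arg260 2 and 1 (median 0.26 and 0.24). These markers are bright, with a mean level of 4.11 to 4.59 in WT PLB. Probes near the level of the brightest Fgfr1 probe had a median change of 0.44 and 0.50 with the same scaling. The stromal markers are about as bright (4.06 to 4.76 in WT PLB). The part of the scaling in the counts of these and the other marker lists was not tested. Of 9 endothelial markers, WT had 1 higher and 4 lower, Arg260 2 and 1. Mesothelial markers were lower for 4 of 6 in WT and 5 of 6 in Arg260. Of 7 genes listed as markers of granulosa and theca cells of the ovary, 6 were tested and 4 were well above background throughout each group. All mice had their ovaries removed, so that these genes are not read here as a shift of such cells. WT had 3 higher and 0 lower, Arg260 2 and 1. Their mean level ran from -1.86 to -1.33 in WT PLB and from -0.71 to -0.40 in WT E2, and from -1.62 to -1.41 in Arg260 PLB and from -0.54 to -0.45 in Arg260 E2, with no overlap. The part of these shifts in the changes of the FGF genes was not tested.

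Among the other FGF ligands, Fgf22 rose and Fgf13 and Fgf23 fell in both genotypes. Of 15 listed, 10 were tested, and Fgf3, Fgf4, Fgf5, Fgf15 and Fgf20 did not pass the filter on dim probes. The test called 2 higher and 2 lower for WT mice, beside 31.9% and 31.7% of all genes. It called 2 and 3 for Arg260 mice, beside 33.6% and 30.7%. The median log2 change was -0.22 and -0.09 (all genes -0.02 and 0.02). Fgf22, a ligand of synapse formation, rose in WT (1.16) and in Arg260 (0.73), and by less (0.73 and 0.47) with normexp background correction and quantile normalisation. Fgf13, which stays inside the cell and binds sodium channels, was lower (-1.67 and -1.03). It was well above background on all PLB arrays but on only 2 of 4 WT and 3 of 4 Arg260 E2 arrays, so that the size of the fall is uncertain. It was -0.81 and -0.59 as the mean of its probes, -0.82 and -0.59 in the series table and -0.47 and -0.28 with normexp. Its Arg260 call was lost without any 1 of 5 arrays (replicates 2 and 4 of PLB and 1, 2 and 3 of E2), with adjusted p up to 0.0878. Fgf23, the phosphate hormone of bone, was read by 1 of its 2 probes, at a mean level of 4.01 in WT PLB. The other did not pass the filter on dim probes. Fgf23 was lower (-0.34 and -0.49), and more so with quantile normalisation (-0.75 and -0.95) and in the series table (-0.76 and -0.94). Its WT call was lost without replicate 2 of WT PLB (adjusted p = 0.0638) or replicate 3 of WT E2 (0.0744). Fgf17 is 1 of the 2 counted as higher in each genotype, but it passed the filter only through E2 arrays (2 of 4 per genotype, 0 of 4 with PLB), so that its call is not independent of the filter. Its E2 means include arrays on which it was not well above background, so that no size of a rise is given.

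Among co-receptors and ligand carriers, 11 of 12 listed genes were tested. Like the other gene lists, this list was chosen with earlier results of these data known, so that its counts are no test. In WT 8 fell and 2 rose, where 31.7% of all genes fell and 31.9% rose. The Arg260 counts were 7 and 2, beside 30.7% and 33.6% of all genes (median -1.17 and -0.73, all genes -0.02 and 0.02). Flrt3, a membrane protein that binds FGF receptors, fell in WT and Arg260 (-2.39 and -2.21), as did its relative Flrt2 (-1.73 and -1.75). Their relative Flrt1 rose by 1.92 in both. Cdh2, or N-cadherin, which associates with Fgfr1, fell as well (-1.71 and -1.90).

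Genes of heparan sulfate, the cofactor of FGF binding, went both ways. All 22 were tested, and WT uteri had 10 higher and 5 lower, where 31.9% of all genes rose and 31.7% fell. Arg260 uteri had 9 and 5, beside 33.6% and 30.7% of all genes (median 0.19 and 0.22). The paired 6-O-sulfatases, which trim heparan sulfate outside the cell, went opposite ways: Sulf2 rose by 1.43 and 1.63 and Sulf1 fell (-1.40 and -1.27). Glce, the epimerase of chain synthesis, rose by 1.37 and 1.34. Heparanase, Hpse, which cuts the chains, fell (-1.47 and -1.11).

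Among adaptors and signal relay genes, 20 of 21 listed were tested. This list, too, was chosen with earlier results of these data known, so that its counts are no test. In WT 13 rose while 3 fell, where 31.9% of all genes rose and 31.7% fell. For Arg260 the counts were 12 and 4, beside 33.6% and 30.7% of all genes (median 0.50 and 0.45). The MAP kinase kinases Map2k1 (1.80 and 1.93) and Map2k2 (1.50 and 1.42) rose. The docking protein Gab1 fell (-2.34 and -2.40), and so did the phospholipase Plcg1 (-1.52 and -1.30). These proteins also serve other receptor tyrosine kinases.

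Feedback and target genes of FGF signalling changed in opposite directions. Of 12 listed, 11 were tested. WT had 4 higher and 6 lower, beside 31.9% and 31.7% of all genes. Arg260 had 5 and 6, beside 33.6% and 30.7% (median -0.45 and -0.50). Spry4, a Sprouty inhibitor, rose by 3.34 and 3.55 (1.98 and 2.04 with normexp). Its PLB means were low (-5.62 in WT and -5.69 in Arg260), and it was well above background on 3 of 4 Arg260 PLB arrays. The size of its rise is therefore uncertain. Dusp6, the ERK phosphatase, rose by 1.36 and 1.11 (Arg260 0.70 with quantile normalisation). Etv1 and Etv5, ETS transcription factors that FGF signals often induce, fell (Etv1 -2.85 and -2.78, Etv5 -1.77 and -1.60). None of the 20 pathway genes named here was called for a difference of the E2 responses between genotypes, with differences from -0.43 to 0.64.

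The genes whose profile over the 16 arrays lay closest to Fgf10 were Fam171b, Mterf2 and the angiotensin receptor gene Agtr1a. After centring each gene on its own mean, their root mean square distances were 0.244, 0.247 and 0.248 log2 units, where the median over 15633 named genes was 1.66. For Fgfr3 the closest were the arrestin gene Sag (0.321), Atrnl1 (0.340) and Syce1l (0.344), with a median of 1.07 over the same genes. Likeness here rests on 16 arrays whose main difference is the treatment.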

How the data were processed

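Per the file headers, the deposited intensities are spot signals from Agilent's Feature Extraction (version 10.10.1.1), which the authors' scanner software corrected for background within each array. A second file deposited by the authors, with log2 values for 37585 probes, served only as an alternative. How its background was corrected is not given in the sources used here, though limma is named in the submitters' processing notes. Per the labels' protocols, 200 ng of total RNA was labelled per sample.

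Control spots and spots marked as outliers were left out. Each array was scaled to its 75th percentile, and the log2 values of a probe's spots were averaged. Probes well above background on at least 4 of 16 arrays (38678) were kept, and the probe with the highest mean stood for its gene (25859 genes). Names came from the RefSeq table of GRCm38.p6 by accession for 27235 probes, by symbol for 3581 and by synonym for 565; 24300 kept the file's name. Group means were fitted with limma 3.58.1 in R 4.3.3 over all 16 arrays (12 residual degrees of freedom), two-sided, with Benjamini-Hochberg adjustment over all genes. The number of arrays limits the precision. Alternatives included quantile normalisation, alone or after normexp background correction (offset 50).

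Simulated data had 100 genes changed at each size among 25859. The WT comparison recovered 70% of changes of 1 log2 unit and 89% of changes of 2, with 7 false calls. There, noise was independent between genes, and far fewer genes changed than the 63.6% called in WT. These rates therefore do not describe the E2 comparisons reported here. The members and gene lists were chosen with earlier results of these data known. Named pathway genes are up to 4 per list, called in both genotypes, with the largest mean change. The main fit did not pair samples by replicate number. Correlations of deviations ran from -0.11 to 0.26 over 24 same-number pairs, and from -0.28 to 0.30 over 72 other pairs. These ranges overlap, which cannot exclude a pairing.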

Additional observations from a re-analysis of the deposited data

Results flagged for a closer look

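Among the 39 group and member combinations looked at, 2 held an array far from the others of its group, and chance gives about 1 in 20. Both were replicate 4 of Arg260 E2. Fgfr2 was at -0.67 there, beside -0.43 to -0.38 on the other 3 arrays of the group. Fgfr3 was at 1.66, beside 1.96 to 2.02.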

How the results depend on the processing

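Fgf10, Fgf18 and Fgfr2 kept their direction and their call after E2 in both genotypes under every alternative run, as did Fgf7 in WT and Fgf1 and Fgfr3 in Arg260. Slide 2 alone had 2 arrays per group, but only 1 value for Fgf9 in WT E2. It called 4 of the 10 members in WT (44.0% of all genes), where Fgf1, Fgfr3 and, with that 1 value, Fgf9 did not pass. It called 5 in Arg260 (43.4%), where Fgf7 and Fgf9 did not pass. Slide 1 alone, of the same size, called 7 in each genotype (53.7% and 56.0% of all genes). The sign of Fgfr4 in WT was reversed with quantile normalisation (0.10), normexp and quantile normalisation (0.075), the deposited series table (0.053), slide 1 alone (0.15), and without replicate 3 of WT PLB or of WT E2 (range over single arrays left out -0.12 to 0.016); the sign of Fgfr1 in Arg260 was reversed on slide 2 alone (0.067). Fgf13 in Arg260 did not pass with quantile normalisation (-0.90), nor on either slide alone. Fgf22 in Arg260 did not pass on slide 1 alone, nor Fgf23 on slide 2 alone or, in WT, on slide 1 alone. The cause was not tested.

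Genes called between genotypes in E2, 0 in all, were 1 with quantile normalisation, 3 with normexp and quantile normalisation, 2 in the series table, 2 with probes well above background on all 16 arrays, 2 with a trended robust prior, and 0 to 2 when 1 array was left out. No member was among those called in any alternative. With the slide as a block, 7 members passed in each genotype (63.5% and 64.3% of all genes). With the replicate block, 7 members passed in each genotype, 16394 genes in WT and 16673 in Arg260, and 0 in each genotype comparison; the block changed no call of a member. Keeping marked spots and leaving out both arrays that stood apart were chosen after seeing the data.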

Other observations

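For the 3 probes of members printed 10 times per array, the SD between spots of 1 array had a median of 0.11 for Fgf10, 0.12 for Fgf2 and 0.07 for the second Fgfr2 probe. The SD between arrays of a group ran from 0.09 to 0.32 for Fgf10, from 0.14 to 0.30 for Fgf2 and from 0.07 to 0.22 for Fgfr2.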
